A study of Mus musculus with 39 samples.

Results

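The 10 genes described here are Epcam, Cdh1, Esrp1, Esrp2, Grhl1, Grhl2, Ovol1, Ovol2, Elf3 and Rab25, a set of epithelial adhesion, splicing, transcription and membrane traffic genes. They were taken by symbol, 10 of the 39017 genes in the count table. The set was chosen by its measured class difference in these libraries, with Epcam higher and Cdh1 similar between the classes, so the class values of the members are a description and carry no test. Each gene is given by clone and by T cell class, in all libraries and in those without heart transcripts.

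Epithelial cells hold together through E-cadherin, the product of Cdh1, and many carry the surface protein EpCAM. Esrp1 and Esrp2 encode RNA-binding proteins that direct epithelial splice forms, and Grhl, Ovol and Elf3 genes encode transcription factors of epithelial identity. Rab25 encodes a small GTPase of the Rab11 family that returns membrane cargo to the cell surface. During epithelial-mesenchymal transition these genes commonly fall, and ZEB and SNAIL factors repress several of them through E-box sequences. Pancreatic tumour cells can lie anywhere along that range.

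RNA was sequenced from YFP-positive cells sorted from mouse pancreatic tumours, and the design sets tumours with few T cells against those with many. Clones of tumour cells were placed under the skin of C57BL/6 mice, which received no treatment, and tumours were collected after 3 weeks. The labels class 9 clones (18 libraries) as T cell low, 6 clones (14 libraries) as T cell high and 2 clones (4 libraries) as intermediate. The other 3 libraries, from 3 clones, have no class and enter no class comparison. The 20 clones come from 13 lines, reading the number before the c in a clone name as the line, so yfp_7160c2 and yfp_7160c5 are clones of line yfp_7160. All groups share the YFP marker, the host strain and the absence of treatment, and each clone is 1 cell line. Whether each library is a different mouse is not given in the sources used here. In bulk RNA, fewer cells that express a gene and less RNA per cell cannot be told apart.

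Levels are read counts scaled to a common library total (CPM), and library totals ran from 7638130 to 103794674 counts with a median of 34565903. The libraries are of 2 kinds. In 20 libraries Myh6, Myh7, Myl2 and Mb, genes of heart muscle, summed to at most 0.235 CPM, and these are called heart-free. In the other 19, called heart-bearing, the sum was 152 to 4894 CPM, so that no library lay near the limit of 10 CPM. Liver transcripts moved with them, at 481 to 15890 CPM in heart-bearing and at most 241 CPM in heart-free libraries. The 5 tumour cell markers Krt8, Krt18, Krt19, Krt7 and Sox9 summed to 3425 to 11420 CPM in heart-free and 3425 to 9303 CPM in heart-bearing libraries. Each clone level below is from its heart-free libraries unless stated, which leaves 17 clones in 20 libraries: 8 low, 6 high, 2 intermediate and 1 without class.

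The 250 bases before the start of Epcam, Rab25 and Elf3 are shown because these windows hold the E-box CACCTG, the letters that ZEB and SNAIL factors bind, and Zeb1 is compared with the members further on. They are from RefSeq on GRCm38.p6, are read 5′ to 3′ on the strand of the gene, and carry motif matches in capitals. Epcam lies on chromosome 17 (chr17:87635729-87635978, plus strand), Rab25 on chromosome 3 (chr3:88548280-88548529, minus strand) and Elf3 on chromosome 1 (chr1:135258473-135258722, minus strand).
Epcam: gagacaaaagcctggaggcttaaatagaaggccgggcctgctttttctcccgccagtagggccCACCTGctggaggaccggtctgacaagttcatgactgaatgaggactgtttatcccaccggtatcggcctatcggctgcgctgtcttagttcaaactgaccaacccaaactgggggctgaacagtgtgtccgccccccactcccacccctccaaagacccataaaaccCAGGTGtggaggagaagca
Rab25: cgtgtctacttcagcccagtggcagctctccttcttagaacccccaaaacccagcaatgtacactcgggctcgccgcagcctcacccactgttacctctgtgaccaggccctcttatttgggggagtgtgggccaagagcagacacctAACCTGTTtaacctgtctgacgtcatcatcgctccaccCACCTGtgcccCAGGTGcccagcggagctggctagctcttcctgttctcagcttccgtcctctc
Elf3: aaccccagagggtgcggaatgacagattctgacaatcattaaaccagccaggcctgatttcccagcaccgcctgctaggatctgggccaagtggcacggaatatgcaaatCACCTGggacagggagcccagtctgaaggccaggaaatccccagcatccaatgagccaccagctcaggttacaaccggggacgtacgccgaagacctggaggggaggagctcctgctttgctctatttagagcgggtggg
Counting back from the start, the Epcam window holds CACCTG at -187 and its reverse complement CAGGTG at -19. The Rab25 window holds CACCTG at -64, CAGGTG at -53 and, at -102, AACCTGTT, which matches the grainyhead motif AACNGGTT on the other strand. The Elf3 window holds CACCTG at -140. CACCTG on either strand was in 17.2% of 32851 promoter windows of this length, AACNGGTT in 1.79% and the Ovo-like motif CCGTTA in 2.18%. The windows of Ovol2 and of both Grhl1 starts held none of these letters. The RefSeq table matched 5 of the 10 genes, and Cdh1, Esrp1, Esrp2, Grhl2 and Ovol1 were not matched. A match describes letters only.

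Epcam and Cdh1 are the adhesion genes of the set, and they varied in different ways. Epcam (ENSMUSG00000045394, chromosome 17, 87635979 to 87651129 on GRCm38) encodes a glycoprotein of the lateral membrane that is cut to signal to the nucleus. Its level was 12.7, 60.2 and 439.6 CPM (lowest, median and highest) over the 18 low libraries and 15, 105 and 865 CPM over the 14 high libraries. In the intermediate libraries it was 28.6 and 31.3 CPM in yfp_6422c5 and 1471 and 539 CPM in yfp_7160c5. The low and high ranges overlapped, since the highest low library exceeded most of the high ones. Over the 17 heart-free clones Epcam reached 16.7 times its median of 88.0 CPM, in yfp_7160c5. The 4 highest clones below line yfp_7160 lay close together: yfp_6421c2 at 439.6 CPM, yfp_6555c3 at 438, yfp_6620c1 at 434 and yfp_6499c4 at 433. The first of these is T cell low and the other 3 are T cell high.

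Cdh1 (ENSMUSG00000000303, chromosome 8, 106603351 to 106670246) encodes the adherens junction cadherin. It stood at 451, 689 and 1180 CPM over low libraries and 536, 797 and 1247 CPM over high libraries. The 4 intermediate libraries lay between 834 and 1469 CPM. Over heart-free clones it ran from 393 CPM in yfp_7062c3, which has no class, to 1469 CPM in the intermediate clone yfp_6422c5. That highest clone was only 1.73 times the median. Cdh1 was thus abundant in every clone, also where Epcam was scarce: yfp_6422c5 held the most Cdh1 and 28.6 CPM of Epcam.

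The splicing factors split in the same way. Esrp1 (ENSMUSG00000040728, chromosome 4, 11331933 to 11386783) was at 0.0315, 1.41 and 22.0 CPM over low libraries and 0.186, 9.11 and 71.8 CPM over high libraries. The intermediate libraries held 0.325 and 2.81 CPM in yfp_6422c5 and 144 and 70.4 CPM in yfp_7160c5. Esrp1 had the widest spread of the set, with its highest clone 137 times the median of 1.05 CPM. Esrp2 (ENSMUSG00000084128, chromosome 8, 106130319 to 106136974), the second gene of the pair, was at 29.5, 63.1 and 120 CPM over low and 27.8, 66.7 and 81.6 CPM over high libraries. In intermediate libraries it was 69.2 to 96.7 CPM, and its highest clone was 2.23 times the median.

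Per kilobase of exon the balance of Esrp1 and Esrp2 could be compared directly. Esrp1 made up 0.0655% of their sum in yfp_6556c3, the lowest clone, and under 2% in 10 of the 17 clones. It made up 19.95% in yfp_6555c3, 20.3% in yfp_6421c2, 49.8% in yfp_7160c2 and 58.9% in yfp_7160c5. In those clones of line yfp_7160 the length-scaled levels of Esrp1 were 11.4 and 22.9 CPM per kilobase against 11.5 and 15.95 for Esrp2. Esrp2 was thus the main Esrp transcript in 15 clones by a wide margin, and the pair stood near parity in line yfp_7160. The clone yfp_6421c2 is of the low class, so a raised Esrp1 share was not limited to high clones.

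The grainyhead genes were scarce. Grhl1 (ENSMUSG00000020656, chromosome 12, 24572283 to 24617391) was at 0.426, 3.08 and 7.58 CPM over low and 0.576, 2.93 and 5.14 CPM over high libraries, and at 4.02 to 4.96 CPM in intermediate ones. Its highest clone, the low clone yfp_6499c3, was 3.69 times the median. Grhl2 (ENSMUSG00000022286, chromosome 15, 37233036 to 37363569), a regulator of Cdh1 and of tight junction genes, was at 0.155, 0.589 and 2.10 CPM over low and 0.0240, 0.590 and 1.90 CPM over high libraries. In yfp_7160c5 it was 13.6 CPM heart-free and 4.37 CPM heart-bearing, and in yfp_6422c5 0.0749 and 1.35 CPM. No other heart-free clone passed 1.35 CPM, so that Grhl2 was at a level of several CPM in 1 clone alone. Its sister clone yfp_7160c2 was at 0.913 CPM.

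Ovol1 and Ovol2 encode zinc finger factors known as antagonists of Zeb1. Ovol1 (ENSMUSG00000024922, chromosome 19, 5549136 to 5560646) was at 0.256, 0.982 and 2.48 CPM over low, 0.768, 1.40 and 1.92 CPM over high and 1.35 to 1.78 CPM over intermediate libraries. Ovol2 (ENSMUSG00000037279, chromosome 2, 144305175 to 144332146) was lower and more uneven, at 0, 0.0429 and 0.598 CPM over low and 0.0372, 0.341 and 3.76 CPM over high libraries. In yfp_7160c5 it was 7.02 and 2.47 CPM, against 0.125 and 0.270 CPM in yfp_6422c5. The heart-free library of yfp_6694c2 had 0 Ovol2 counts, which allows up to 0.0853 CPM and covers counting error only. Line yfp_7160 therefore held both the highest Ovol2 clones, and the rest stood at or under 0.598 CPM.

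Elf3 and Rab25 close the set. Elf3 (ENSMUSG00000003051, chromosome 1, 135253575 to 135258568), an ETS factor of ductal and gut epithelium, was at 31.5, 97.1 and 176 CPM over low, 51.6, 138 and 262 CPM over high and 54.8 to 151 CPM over intermediate libraries. Its highest clone was 1.56 times the median, the narrowest spread of the 10 genes by that measure. Rab25 (ENSMUSG00000008601, chromosome 3, 88542029 to 88548300) was at 0.158, 0.600 and 3.23 CPM over low and 0.164, 2.29 and 13.8 CPM over high libraries. It was 50.8 and 26.5 CPM in yfp_7160c5 and 0.375 and 1.51 CPM in yfp_6422c5. The highest Rab25 clone was 115 times the median of 0.440 CPM, and outside line yfp_7160 the highest was yfp_6555c3 at 2.76 CPM.

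**Figure D1:**
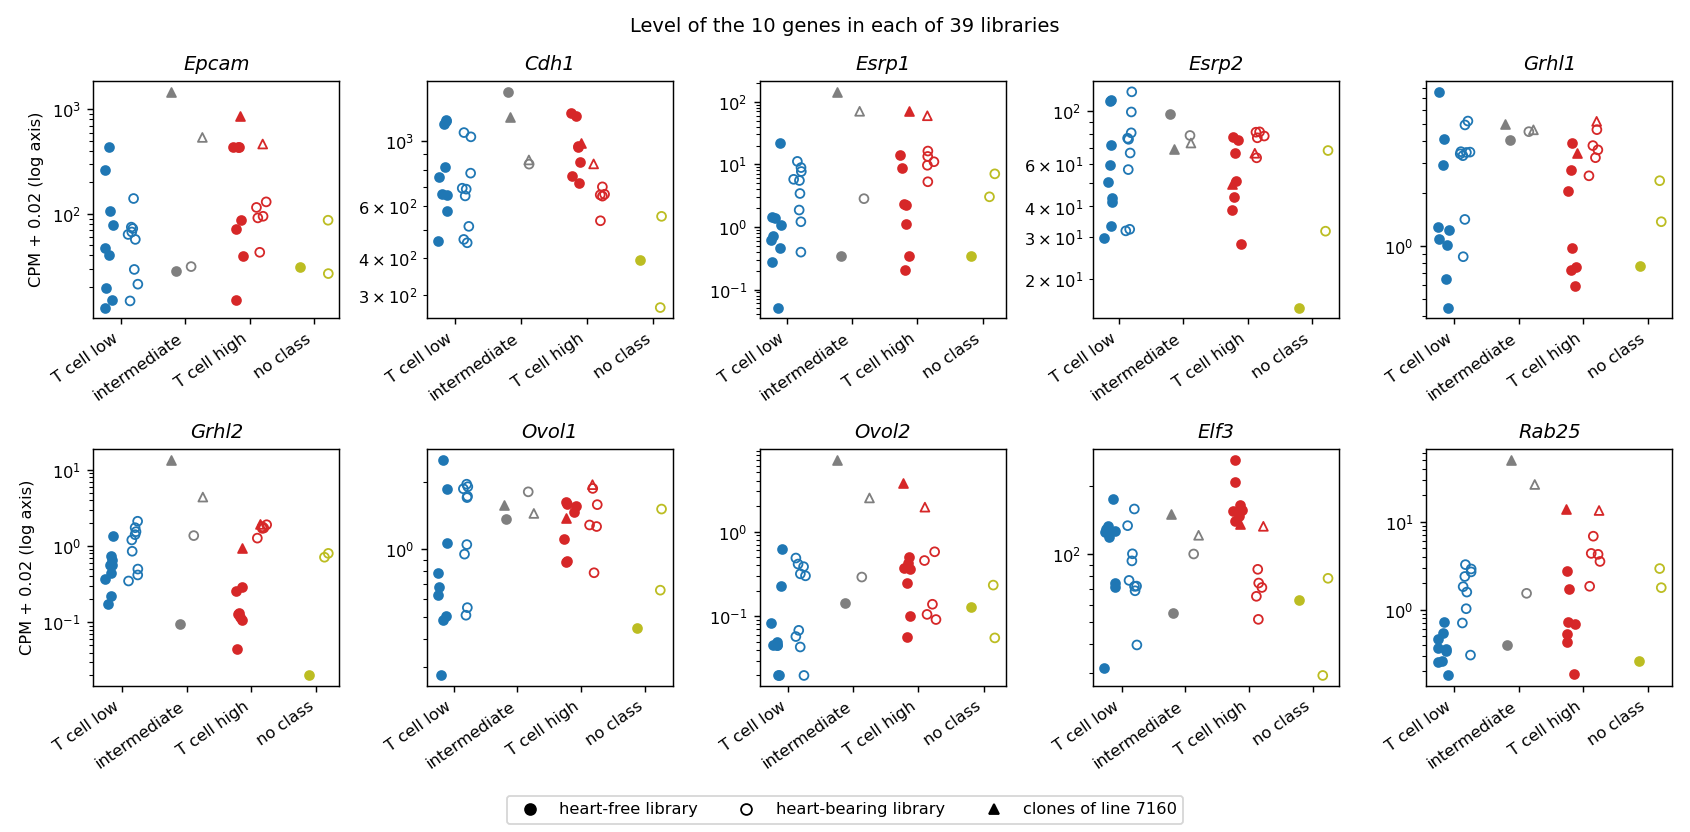
CPM plus 0.02 on a log axis for each gene in each of the 39 libraries, by class, with filled points for heart-free and open points for heart-bearing libraries and triangles for line yfp_7160. The triangles stand above the other points of their class for Epcam, Esrp1, Ovol2 and Rab25, while Cdh1, Esrp2 and Elf3 keep within a narrow band.

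Scaled by exon length, the median level over heart-free clones ran in the order Cdh1 (185 CPM per kilobase), Elf3 (60.5), Epcam (40.1) and Esrp2 (11.5). Grhl1 (0.371), Ovol1 (0.355), Rab25 (0.263), Esrp1 (0.167), Ovol2 (0.0973) and Grhl2 (0.0309) followed. The clone ranges of Cdh1 and Elf3 met, at 85.9 to 321 and 14.2 to 94.6 CPM per kilobase, and those of all neighbours from Grhl1 to Grhl2 overlapped widely. Exons of Esrp1, Esrp2, Grhl2, Ovol1, Ovol2 and Elf3 overlap genes on the other strand, by 690 bases for Ovol1 with Gm31166 and 359 for Ovol2 with 1700108N11Rik. Reads from such stretches cannot be assigned, because the strand setting of the counting is not given in the sources used here.

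Between the classes, Epcam, Esrp1, Ovol2 and Rab25 had higher mean levels in high clones, and Cdh1, Esrp2 and Grhl1 were close. With all libraries of a clone summed, Epcam was at 265 ± 202 CPM in high and 92.5 ± 92.8 CPM in low clones (mean ± SD, n = 6 and 9), a log2 difference of 1.48 ± 0.62 (SE). Rab25 averaged 4.32 ± 4.62 CPM in high and 0.941 ± 0.471 CPM in low clones, which is 2.15 ± 0.50 on the log2 scale. For Rab25, 5 of the 6 high clones exceeded every low clone. The highest of them was yfp_7160c2 at 13.6 CPM. These sums include heart-bearing libraries, in which Rab25 was higher within clones. Heart-bearing libraries had a median heart sum of 4656 CPM in the high and 1954 CPM in the low class. The part of that difference in the Rab25 values was not tested.

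Esrp1 differed by 2.17 ± 0.78 and Ovol2 by 2.17 ± 0.77 on the log2 scale, and for each only 1 of 6 high clones exceeded every low clone. Without yfp_7160c2 the values were 1.02 ± 0.69 for Esrp1, 0.88 ± 0.67 for Ovol2, 1.02 ± 0.62 for Epcam and 1.35 ± 0.39 for Rab25. Cdh1 differed by -0.01 ± 0.18, Esrp2 by -0.18 ± 0.27, Grhl1 by 0.12 ± 0.41, Grhl2 by 0.23 ± 0.35, Ovol1 by 0.28 ± 0.32 and Elf3 by 0.31 ± 0.22. None of the 10 was called by edgeR's quasi-likelihood test, in which 0 of 18529 genes (0%) passed an adjusted p of 0.05 and 2175 had an unadjusted p under 0.05. DESeq2 called 123 genes, Rab25 among them as the one member, and limma 0 on the same sums. Rab25 was also called by edgeR with each library as a replicate and the kind of library as a block. That setting called 165 of 17434 genes. It takes the libraries of a clone as separate replicates, unlike the clone sums used here. Since the set was chosen on this contrast, nothing is read from these values.

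Without heart-bearing libraries (6 high and 8 low clones), Rab25 differed by 3.10 ± 0.72, Esrp1 by 2.29 ± 1.23, Epcam by 1.64 ± 0.80 and Elf3 by 0.60 ± 0.27. For Rab25, 3 of the 6 high clones exceeded every low clone there. The heart-free libraries of low clones held only 6 to 27 Rab25 counts each. Ovol2 did not pass the filter on low counts there. Grhl2 differed by -0.93 ± 0.60, opposite in sign to its value in all libraries. Again 0 genes of 15614 (0%) were called by edgeR, 2093 with an unadjusted p under 0.05, against 298 by DESeq2, again with Rab25 as the one member, and 0 by limma. In heart-bearing libraries alone Grhl2 differed by 0.72 ± 0.35 and Elf3 by -0.24 ± 0.27, so that the sign of both depended on the kind of library. Leaving out yfp_7160c2 took the heart-free Rab25 value to 1.65 ± 0.46, Esrp1 to 0.71 ± 1.16 and Grhl2 to -1.80 ± 0.54. Leaving out the low clone yfp_6421c2 took Esrp1 to 4.53 ± 1.04.

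The 2 intermediate clones differed widely in Epcam, Esrp1, Rab25, Ovol2 and Grhl2. In yfp_7160c5 the heart-free levels were 1471 CPM of Epcam, 144 of Esrp1, 50.8 of Rab25 and 7.02 of Ovol2, each the highest of the 17 clones. In yfp_6422c5 the same genes stood at 28.6, 0.325, 0.375 and 0.125 CPM, within the range of low clones. Ovol2 and Rab25 were there near the median of all 17. Grhl2 was at 13.6 CPM in yfp_7160c5, also the highest clone, and at 0.0749 CPM in yfp_6422c5, below every low clone. Both clones had high Cdh1, at 1205 and 1469 CPM, above every low clone.

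The low clones are among those on which the set was chosen, so the values against them are a description with no test. With the spread shared over 17 clones of 3 classes, Rab25 averaged 19.9 ± 27.1 CPM in intermediate and 0.941 ± 0.471 CPM in low clones (n = 2 and 9), a log2 difference of 4.33 ± 0.78. Ovol2 differed by 4.03 ± 1.02, Esrp1 by 3.82 ± 1.09, Grhl2 by 2.57 ± 0.59 and Epcam by 2.45 ± 0.91. By edgeR 0 of the 10 were called, and of 20003 genes 1 was called higher (0.005%) and 0 lower. With yfp_6422c5 left out, Grhl2 differed by 3.49 ± 0.51 and Rab25 by 5.29 ± 0.69, with the lone clone assumed to vary like the other classes. Those values are about 1 clone, not the class, and nothing is read from them. With yfp_7160c5 left out in its place, Epcam stood at -1.51 and Rab25 at -0.24. Against high clones 0 of 20003 genes were called by edgeR (0%), 413 with an unadjusted p under 0.05, and Rab25 differed by 2.19 ± 0.89. DESeq2 and limma were not run on the intermediate comparisons.

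Over all 17 heart-free clones 2 groups of members moved together. Of the 45 pairs, 8 had a Pearson r of at least 0.7 over the 17 heart-free clones (17.8%), against 1.11% of all pairs among 13583 genes averaging 1 CPM or more. These are descriptions over points that share lines, clones and depth, and the members were chosen with such patterns known. The first group was Epcam, Esrp1, Ovol2 and Rab25, in which all 6 pairs reached 0.7. The second was Cdh1 and Esrp2, and the eighth pair was Grhl1 and Ovol1. Between Cdh1 or Esrp2 and the first group, r lay between 0.07 and 0.28. Without line yfp_7160, Epcam and Esrp1 were the only pair of the first group that reached 0.7. Cdh1 with Esrp2 and Grhl1 with Ovol1 still did. So did Esrp2 with Grhl1 (0.71) and Ovol1 with Ovol2 (0.72), which cross these groups.

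Epcam and Esrp1 had r = 0.92 (Spearman's rho 0.92). Without line yfp_7160, whose clones are also the 2 farthest from the Epcam median, r was 0.88 over 15 clones. It was 0.85 within the 8 low clones and 0.85 within the 6 high clones, so the relation was present inside each class. In heart-bearing libraries r was 0.94 over 18 clones. The points are plotted beside those of 2 other pairs.

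**Figure D2:**
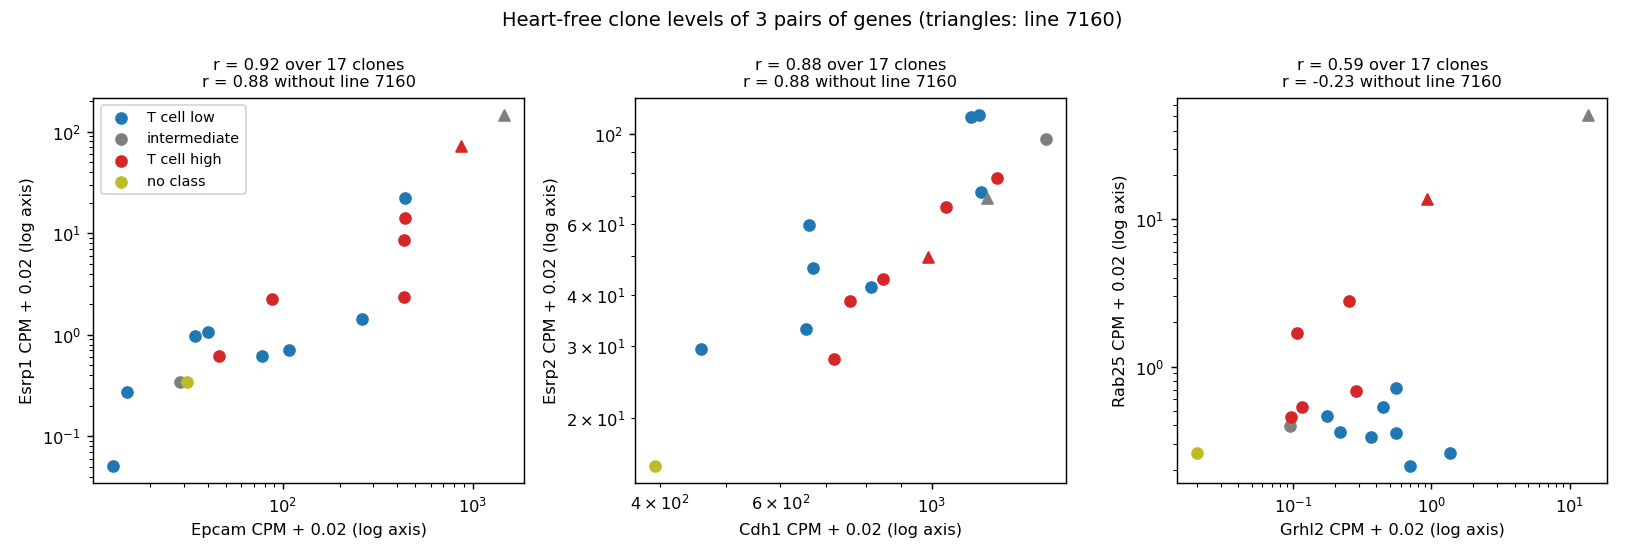
Heart-free clone levels of Epcam and Esrp1, Cdh1 and Esrp2, and Grhl2 and Rab25, as CPM plus 0.02 on log axes, coloured by class, with triangles for line yfp_7160. The first pair rises along one line with or without the triangles, the second likewise, and the third loses its slope without them, from r = 0.59 to -0.23.

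Cdh1 and Esrp2 had r = 0.88 (rho 0.86), 0.88 without line yfp_7160 and 0.79 without the 2 clones farthest from the Cdh1 median. Within low clones r was 0.87 and within high clones 0.94. This pair therefore did not rest on line yfp_7160, nor on class. The remaining pairs of the first group leaned on line yfp_7160. Without that line Esrp1 and Ovol2 went from 0.86 to 0.68, Epcam and Ovol2 from 0.76 to 0.59, and Ovol2 and Rab25 from 0.86 to 0.47. Esrp1 and Rab25 went from 0.78 to 0.44, and Epcam and Rab25 from 0.72 to 0.55. Among low clones Rab25 had r = -0.21 with Esrp1 and -0.04 with Epcam, while among high clones it had 0.86 and 0.78. The low values rest on 6 to 27 Rab25 counts per library.

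Grhl1 and Ovol1 had r = 0.74 (rho 0.67), 0.73 without line yfp_7160 and 0.77 without the 2 clones farthest from the Grhl1 median. Grhl2 had no r of 0.7 with any member in heart-free clones. In heart-bearing libraries it had 0.83 with Esrp1, 0.79 with Epcam, 0.79 with Rab25 and 0.75 with Ovol2 over 18 clones. Among those libraries yfp_7160c5 held the most Grhl2, at 4.37 CPM. The least, 0.328 to 0.479 CPM, was in the libraries with the lowest heart sums, 152 to 741 CPM. How far these r rested on line yfp_7160 or on the heart sum was not tested. Within the 6 high heart-free clones Grhl2 had r = 0.95 with Esrp1, but yfp_7160c2 stood apart there in both genes. Over the 15 heart-free clones without line yfp_7160, Grhl2 and Esrp1 had r = 0.33. In heart-free clones the r of Grhl2 with Rab25 was 0.59 over 17 clones and -0.23 without line yfp_7160. With its paralog Grhl1, Grhl2 had r = 0.41. Elf3 was closest to Ovol1, at 0.61.

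**Figure D3:**
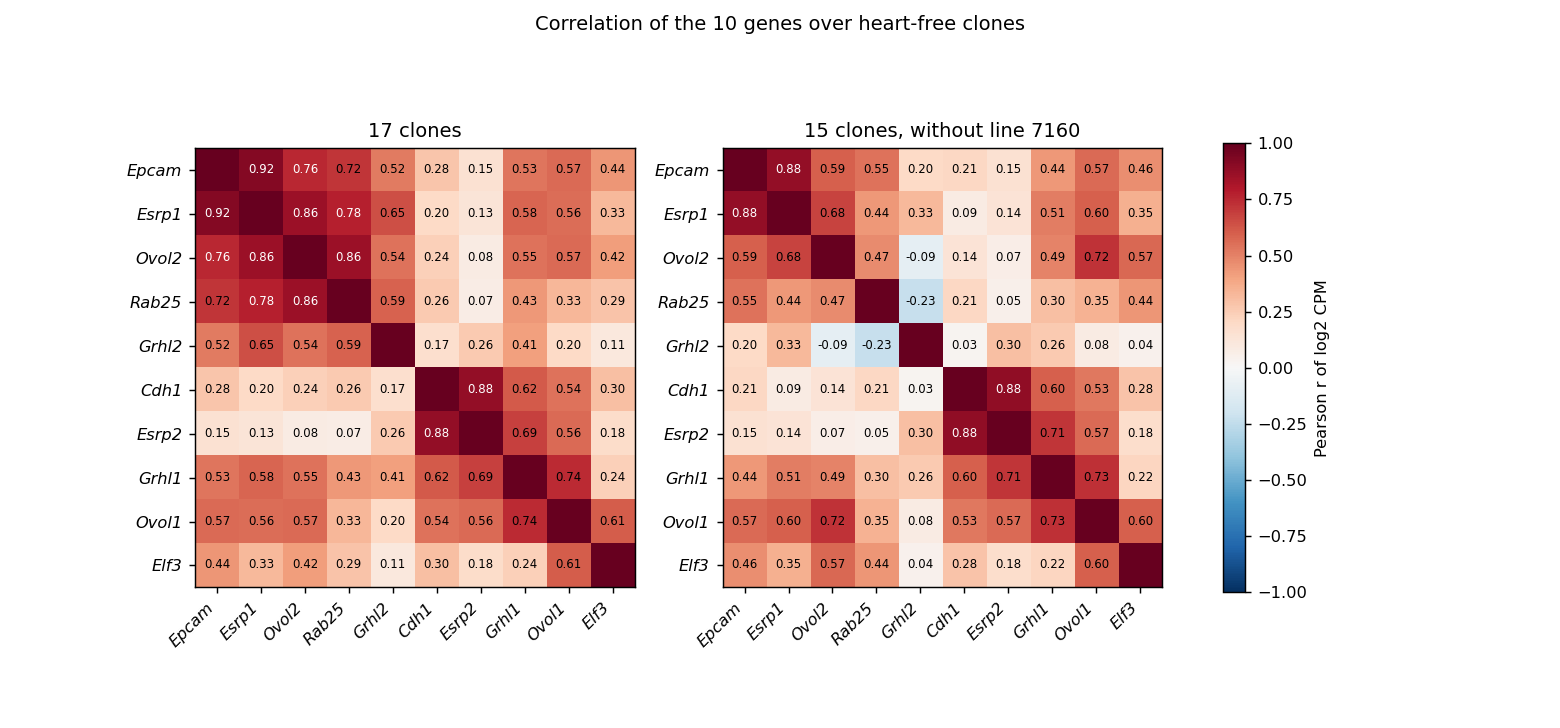
Pearson r of log2 CPM for each pair of the 10 genes over 17 heart-free clones (left) and over the 15 without line yfp_7160 (right), from -1 in blue to 1 in red. The Epcam and Esrp1 cell and the Cdh1 and Esrp2 cell are similar on both sides (0.92 and 0.88 for the first pair, 0.88 and 0.88 for the second), whereas the cells of Rab25 with Esrp1, Ovol2 and Grhl2 pale on the right.

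Among 11 factors and markers of epithelial-mesenchymal transition, Zeb1 and Vim had the most negative r with every gene of the first group. Snai1, Snai2, Prrx1 and Fn1 were also negative with each, from -0.60 (Prrx1 with Ovol2) to -0.09 (Fn1 with Rab25). Zeb1 encodes a repressor that binds the E-box CACCTG marked above, and Vim the mesenchymal filament vimentin. Zeb1 had r = -0.78 with Epcam, -0.77 with Esrp1, -0.73 with Ovol2 and -0.73 with Rab25 over the 17 clones. Without line yfp_7160 these were -0.72, -0.69, -0.62 and -0.64. With Cdh1 and Esrp2, Zeb1 had r = -0.39 and -0.39. With Grhl1, Ovol1, Grhl2 and Elf3, also outside the first group, Zeb1 had -0.71, -0.67, -0.61 and -0.58. The windows of Ovol2 and Grhl1 held no CACCTG, whereas that of Elf3 did. Vim had r = -0.81 with Epcam, -0.86 with Esrp1, -0.84 with Ovol2 and -0.67 with Rab25, but -0.09 with Cdh1 and -0.10 with Esrp2. Without line yfp_7160 Vim had -0.72, -0.76, -0.72 and -0.19 with the first group, so that its relation to Rab25 rested on that line. Zeb2, the paralog of Zeb1, had r = -0.13 with Epcam and -0.15 with Esrp1. Snai1, which encodes SNAIL, had r = -0.17 with Epcam and -0.40 with Cdh1. Twist1, another transition factor gene, went the other way, with r = 0.71 with Epcam (0.68 without line yfp_7160) and 0.58 with Esrp1. These relations were looked at after the pairs were known, and share the same libraries.

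The genes most like each member, among about 10605 averaging 5 CPM or more, were also named. For Epcam they were St14 (r = 0.95), Lgals4 (0.93), Esrp1 (0.92), Marveld3 (0.92) and Nepn (0.91), and St14 encodes the membrane protease matriptase. For Esrp1 they were Epcam, St14 (0.90), Pglyrp1 (0.89), Map7 (0.88) and Tmc4 (0.88). For Rab25 they were Tmc4 (0.90), Nkx6-3 (0.90), Proc (0.88), Slfn4 (0.85) and Pglyrp1 (0.85), and none of these was among the nearest 5 without line yfp_7160. For Ovol2 they were Ap1m2 (0.93), a clathrin adaptor subunit of epithelial cells, Klhdc8b (0.88), Fxyd3 (0.87), Sorl1 (0.87) and Galnt12 (0.86).

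For Cdh1 the nearest genes were Esrp2 (0.88), Ldhd (0.86), Mcu (0.85), Cdh3 (0.84) and Slc25a10 (0.83). For Esrp2 they were Pkp2 (0.93), a desmosome gene, Klc4 (0.88), Ldhd (0.88), Cdh1 (0.88) and Dgat2 (0.86). Elf3 was nearest to Krt7 (0.89), a duct keratin, then Tjp3 (0.83), Ciita (0.82), Ephb3 (0.82) and Pick1 (0.82). Ovol1 was nearest to Mocs1 (0.85) and Crb3 (0.83), Grhl1 to Cd63 (0.87) and Nabp2 (0.86), and Grhl2 to Bclaf1 (0.79) and Zfp652 (0.74). Only 10 genes (0.0943%) reached r of 0.7 with Grhl2, against 260 (2.45%) with Epcam.

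Position was then examined, because Cdh1 and Esrp2 lie near each other on chromosome 8 and Cdh3, next to Cdh1, was among the nearest genes. Of the 50 genes most like Cdh1, 9 (18%) were on chromosome 8, against 5.64% of all genes compared. Without line yfp_7160 the count was 12 (24%), and the nearest 5 then held Tm6sf2, Smpd3 and Galns of that chromosome beside Esrp2. For Esrp2 it was 8 (16%) and 9 without line yfp_7160. The mean level of 111 genes within 10 Mb of Cdh1 had r = 0.34 with Cdh1 over 17 clones and 0.56 over 15. Esrp1 had 10 of 50 (20%) on chromosome 4, falling to 6 without line yfp_7160, and Elf3 had 7 (14%) on chromosome 1 with r = 0.65 to the mean of 88 genes around it. Epcam had 4 (8.0%) on chromosome 17, near the 5.02% of all genes, and Grhl2 and Ovol1 had 0. These counts cover the chromosome of each gene only, and other chromosomes were not counted. Of the 5 genes nearest to Grhl1, Cd63, Nabp2, Rab5b and Tmem5 lie on chromosome 10, from 122078114 to 128912822. Without line yfp_7160, Heatr6, Trim37, Lig3 and Helz of chromosome 11 were among the 5 nearest to Grhl2. DNA copy number was not measured, and its part was not tested.

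**Figure D4:**
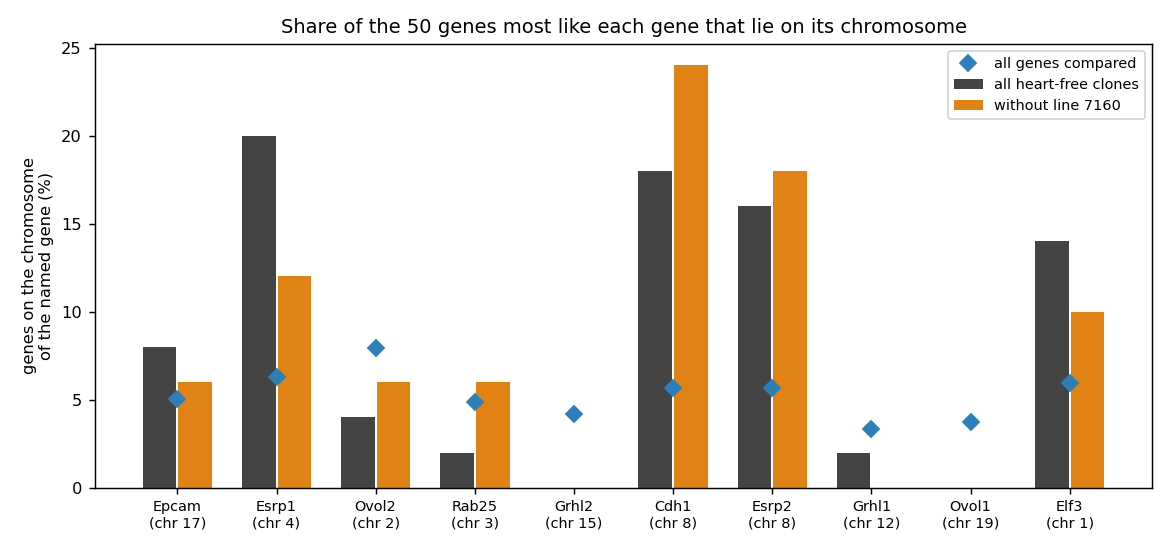
For each gene, the percentage of the 50 genes most like it over heart-free clones that lie on its own chromosome, with all clones (dark bars) and without line yfp_7160 (orange bars), and the percentage of all genes compared (diamonds). Cdh1 and Esrp2 stand at 16% to 24% on both bars against 5.64%, and Rab25, Ovol2, Grhl1, Grhl2 and Ovol1 stand near or below their diamonds.

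Heart-bearing libraries gave other levels of the same genes in the same clones. Over 15 clones with both kinds (34 libraries, clone as a block), edgeR's quasi-likelihood test called 6215 of 19510 genes higher in heart-bearing libraries (31.9%) and 5329 lower (27.3%). Of the 10 members 4 were called higher and 2 lower, which is near that background. Grhl2 rose from a median of 0.266 to 1.69 CPM over clones, by 1.73 ± 0.42 on the log2 scale (adjusted p = 0.00149, higher in 12 of 15 clones). Rab25 rose by 1.63 ± 0.35 (adjusted p = 0.000438, 11 of 15 clones), Esrp1 by 1.61 ± 0.46 (adjusted p = 0.00519, 10 of 15) and Grhl1 by 0.70 ± 0.21 (adjusted p = 0.00695, 11 of 15).

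Cdh1 and Elf3 went the other way. Cdh1 fell by 0.52 ± 0.10 on the log2 scale by edgeR (adjusted p = 9.03e-05), in 14 of 15 clones, and Elf3 fell by 0.67 ± 0.19 (adjusted p = 0.00448), in 12 of 15. Epcam differed by -0.67 ± 0.30 (adjusted p = 0.0584) and was lower in 9 of 15 clones. Esrp2 (0.15 ± 0.11), Ovol1 (0.13 ± 0.21) and Ovol2 (-0.30 ± 0.51) did not pass either. The Epcam call depended on the clones used, and passed without yfp_2699c4, yfp_2838c3, yfp_6556c3, yfp_6556c4 or yfp_6694c2 (adjusted p from 0.0178 to 0.0475).

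**Figure D5:**
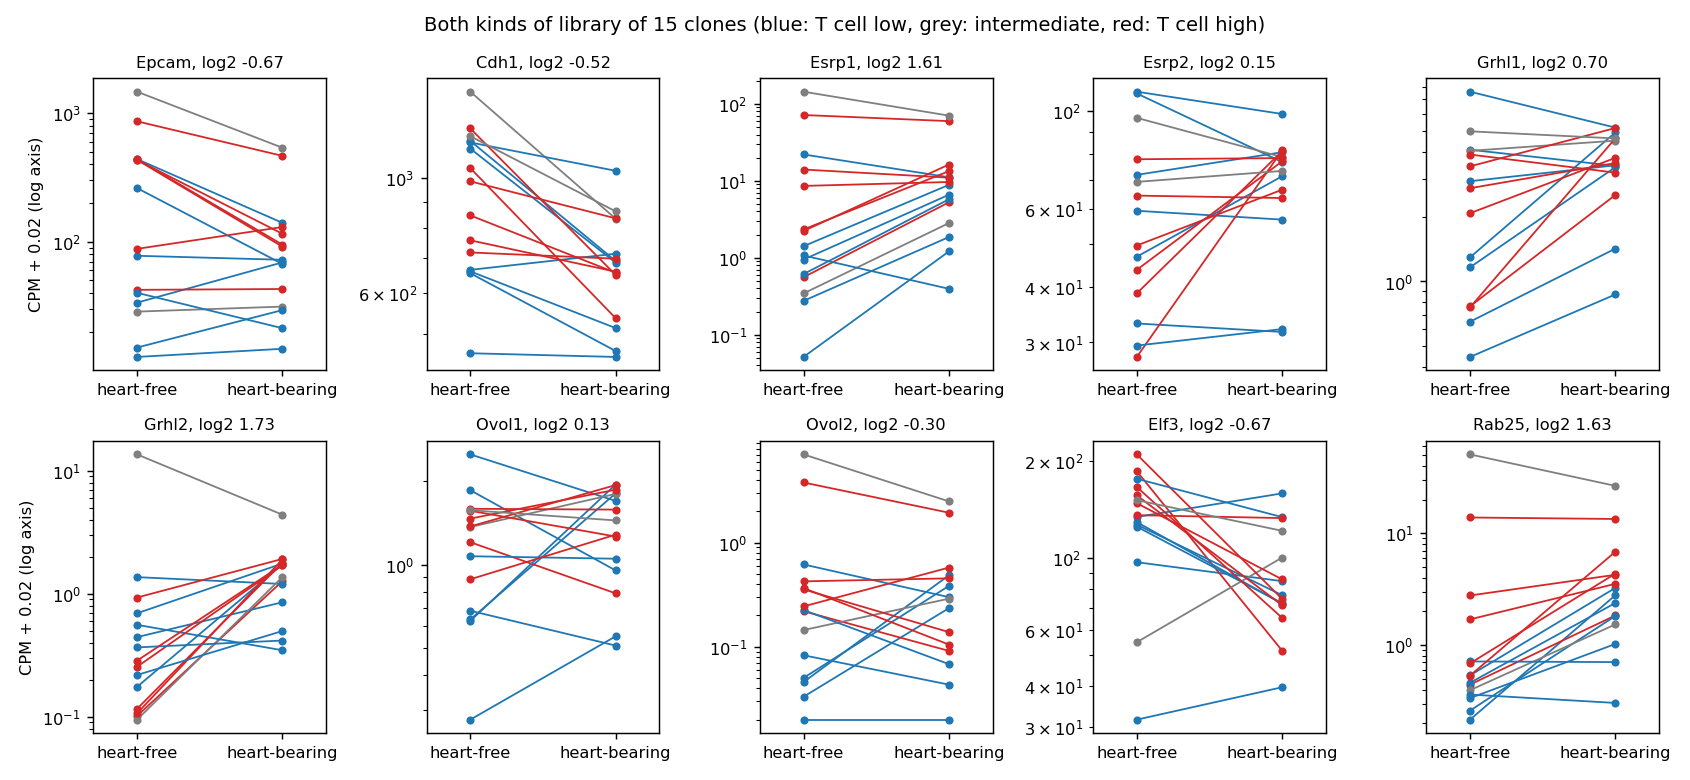
Mean CPM plus 0.02 on a log axis in the heart-free and the heart-bearing libraries of each of 15 clones, joined by a line and coloured by class, with the fitted log2 difference above each panel. Many lines for Esrp2, Grhl2 and Rab25 run from spread values at the left to closer values at the right, with the medians of Grhl2 at 0.266 and 1.69 CPM.

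Over the 19 heart-bearing libraries the members still differed widely, with Epcam at 14.7 to 539 CPM and Cdh1 at 272 to 1068 CPM. In the 7 libraries with a heart sum over 4000 CPM, from 7 clones of 6 lines, Cdh1 lay between 650 and 699 CPM and Esrp2 between 76.0 and 81.6 CPM, a highest over lowest ratio of 1.07 for each. In the 8 heart-free libraries of the same clones those ratios were 2.16 and 3.95. Epcam spanned 67.1 to 130.2 CPM against 19.6 to 438 CPM, and Rab25 2.36 to 6.83 CPM against 0.158 to 2.76 CPM. Ovol2 still varied 14.8-fold in the 7 heart-bearing libraries, and Esrp1 2.84-fold against 32.2-fold. Over 11745 genes averaging 5 CPM or more in these libraries, the median ratio was 1.22 in heart-bearing and 2.17 in heart-free libraries. Those 7 libraries were picked by their heart sum after the data were seen.

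Markers of other epithelia that could carry these genes were compared between the kinds of library, and those of lung and intestine were higher in the median where heart transcripts were present (12 against 3.59 CPM and 19.4 against 5.13 CPM). The 5 lung epithelium markers summed to 2.83 to 28.9 CPM in heart-bearing and 1.42 to 8.83 CPM in heart-free libraries, and the 5 intestinal markers to 11.4 to 36.4 against 1.09 to 34.1 CPM. The keratinocyte median went the other way (14.3 against 18.6 CPM), and the kidney ranges nearly coincided. The 8 keratinocyte markers summed to 9.20 to 26.0 against 10.98 to 48.0 CPM, and the 5 kidney tubule markers to 0.337 to 2.96 against 0.0598 to 3.06 CPM, with Kap at 0 in all heart-free libraries. The 6 fibroblast markers summed to 756 to 8826 against 96.6 to 17630 CPM, the 6 leukocyte markers to 118 to 518 against 14.8 to 527 CPM. The medians were 4012 against 555 CPM for fibroblast and 291 against 48.7 CPM for leukocyte markers. The 4 endothelial markers summed to 23.5 to 219 against 3.24 to 155 CPM, with medians of 172 against 11.9 CPM. The part of all these cell types in the levels of the members, and of Zeb1 and Vim, was not tested.

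Other genes of the same pathways are given by list. In the high against low comparison over all libraries, 48.3% of all tested genes were positive with a median log2 difference of -0.01, and 8 of the 10 members were positive with a median of 0.30. Of 14 Epcam partners and cleavage genes 7 were positive (median 0.05), with the protease inhibitor gene Spint2 at 0.44 ± 0.17 and the sheddase gene Adam10 at -0.13 ± 0.11. Larger values of that list, named after they were seen, were St14 at 2.50 ± 0.63, the claudin gene Cldn7 at 2.32 ± 0.40 and the protease inhibitor gene Spint1 at 1.48 ± 0.34. Of 12 adherens junction genes 4 were positive (median -0.09), with the catenin genes Ctnnb1 at 0.32 ± 0.11 and Ctnna1 at -0.20 ± 0.12. Of 11 other epithelial transcription factors 8 were positive (median 0.22), with Ehf, a relative of Elf3, at 0.91 ± 0.32 and Klf5 at 0.29 ± 0.15. By edgeR none of these listed genes was called.

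Of 11 transition genes 2 were positive (median -0.29), with Zeb1 at -0.32 ± 0.16, Vim at -0.35 ± 0.21 and Fn1, the fibronectin gene, at -0.46 ± 0.30. All 8 splicing regulators beside Esrp were negative (median -0.20), the most abundant being Ptbp1 at -0.11 ± 0.08. Of 15 recycling and polarity genes 10 were positive (median 0.11), with the recycling GTPase gene Rab11a at 0.05 ± 0.11 and the polarity genes Prkci at -0.42 ± 0.18 and Pard3 at -0.30 ± 0.14. In heart-free libraries the splicing list was again 8 of 8 negative (median -0.19) and Ctnnb1 stood at 0.72 ± 0.15. The lists share the clones that chose the members and are no separate evidence.

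Between the kinds of library the lists moved with the members in part, again against 31.9% of all genes called higher and 27.3% lower by edgeR. Of 12 adherens junction genes 1 rose, Cdh3, the P-cadherin gene, by 1.63 ± 0.32 on the log2 scale, and 7 fell, among them Ctnnb1 (-0.68 ± 0.12) and Jup (-0.56 ± 0.08), whose products bind the tail of E-cadherin. Of 14 Epcam partner and cleavage genes 4 rose and 6 fell. Spint2 (-1.12 ± 0.14) and Adam10 (-0.97 ± 0.11) were among those that fell. Of 12 other epithelial factors tested 1 rose, the squamous factor gene Trp63 (1.31 ± 0.35), and 4 fell, among them Ehf (-1.56 ± 0.25).

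Of 15 recycling and polarity genes 0 rose and 8 fell, with the tight junction gene Marveld3 at -0.77 ± 0.23 and the polarity gene Llgl2 at -0.69 ± 0.14, while the member Rab25 rose. Of 11 transition genes 5 rose, with Snai1 at 2.10 ± 0.28 and Prrx1 at 2.11 ± 0.37, and 1 fell. Zeb1 (0.08 ± 0.10) and Vim (0.06 ± 0.12) did not pass. Of 8 splicing regulators 0 rose and 4 fell, led by Srsf1 at -0.70 ± 0.10 and Rbm47 at -0.53 ± 0.06. Members and partners thus rose and fell within the same lists.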

How the data were processed

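RNA sequencing was done on sorted YFP-positive tumour cells. The authors deposited one table of raw read counts per gene for 39 libraries, and per the submitters' processing notes STAR, featureCounts and the mouse build mm10 were used. Their versions, the annotation and the strand setting: not given in the sources used here. The members, lists and tests were chosen with earlier results of these data known.

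For 214 repeated symbols the entry with the highest total was kept, which left 38803. CPM scale the counts of these to a common total. In the class comparisons each clone entered as 1 replicate, the sum of its libraries, and p-values measure only the spread between such sums. Clones of one line were taken as separate. Genes passed filterByExpr, were scaled with TMM and fitted over all genes in edgeR 4.0.16 (R 4.3.3, quasi-likelihood F test), with Benjamini-Hochberg adjusted p under 0.05 called. The steps were tested on simulated data. DESeq2 1.42.0 and limma 3.58.1 were alternatives. Heart-bearing and heart-free libraries of 15 clones were compared per library with the clone as a block. The p-values of that comparison measure the spread of libraries within clones. Intervals and floors cover counting error only.

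Correlations used log2 CPM of heart-free clone sums, with TMM factors and a prior count of 2, and carry no p. Named were all 10 members, the 4 most abundant measured genes of each of 6 lists and any that passed, and the 5 genes nearest to each member. The values of 1 listed gene are not reported here. Pvrl1 to Pvrl4 and Mllt4 were matched by gene identifier as Nectin1 to Nectin4 and Afdn. Gene positions come from GENCODE M21 (GRCm38), which holds 37517 of the 38803 identifiers. Analyses of position, of transition factors and of the libraries with the highest heart sums, and the alternatives without line yfp_7160 or without an intermediate clone, were chosen after seeing the data.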

Additional observations from a re-analysis of the deposited data

Results flagged for a closer look

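The 50 groups examined were low and high clones, heart-free and over all libraries, and the 4 intermediate libraries, for each of the 10 genes. Of these, 11 held 1 value far from the rest. The limit used is passed by chance in about 1 in 20 groups of normally spread values. CPM here are skewed and the groups share libraries, so the 11 cannot be set against that rate. All 11 were a high value in yfp_6421c2 among low clones or in yfp_7160c2 among high clones. In heart-free libraries yfp_6421c2 stood apart with Esrp1 at 22.0 CPM, Grhl2 at 1.35 CPM and Ovol2 at 0.598 CPM, and over all its libraries with Esrp1 at 16.7 CPM. In heart-free libraries yfp_7160c2 stood apart with Esrp1 at 71.8 CPM, Grhl2 at 0.913 CPM, Ovol2 at 3.76 CPM and Rab25 at 13.8 CPM. Over all its libraries it did so with Esrp1 at 64.5 CPM, Ovol2 at 2.65 CPM and Rab25 at 13.6 CPM. Rab25 was not among the high genes of yfp_6421c2, at 0.239 CPM. The cause was not tested.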

How the results depend on the processing

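Between high and low clones over all libraries, edgeR called 0 genes, DESeq2 123, and leaving out 1 clone gave 0 to 16 (16 without yfp_2838c3, 1 without yfp_6421c2). With each library as a replicate 9 genes were called, 13 with the tumour number as a replicate block and 165 with the kind of library as a block. The tumour number largely follows that kind, so it is not a pairing of animals. In heart-free libraries DESeq2 called 298 and leaving out 1 clone gave 0 to 37 (37 without yfp_2838c3, 1 without yfp_6694c2). For intermediate against low clones, leaving out 1 clone gave 0 to 99 genes (99 without yfp_6422c5). Heart-free libraries gave 0, and 73 without yfp_6422c5. Intermediate against high gave 1 in heart-free libraries without yfp_7160c5. Pairs with r of at least 0.7 numbered 16 in heart-bearing libraries, 4 by Spearman's rho, 14 in high clones, 5 without line yfp_7160 and 5 to 10 leaving out 1 clone (5 without yfp_7160c5). Member values changed sign in 21 of 230 alternatives of the first comparison (Cdh1, Elf3, Esrp2, Grhl1, Grhl2), 5 of 162 in heart-free libraries (Grhl1), 10 of 70 and 11 of 70 for the intermediate comparisons and 1 of 180 between kinds of library. Leaving out 1 intermediate clone, values against low clones ran from -1.51 to 3.40 for Epcam, -1.60 to 4.80 for Esrp1, -0.56 to 3.49 for Grhl2, -0.24 to 5.29 for Rab25, -0.44 to 0.34 for Elf3 and -0.020 to 0.54 for Esrp2. Against high clones they ran from -2.97 to 1.93 for Epcam, -3.75 to 2.64 for Esrp1, -0.77 to 3.27 for Grhl2, -1.79 to 2.81 for Ovol2, -2.36 to 3.16 for Rab25 and -0.73 to 0.048 for Elf3. In heart-free libraries without yfp_7160c5, the values against low clones were -1.96 for Epcam, -3.22 for Esrp1 and -2.64 for Grhl2, and against high clones -3.60 for Epcam, -5.51 for Esrp1, -1.71 for Grhl2, -2.65 for Ovol2 and -2.99 for Rab25. Without yfp_6422c5 Elf3 was at 0.32 against low clones there. Ovol1 between kinds of library ran from -0.036 to 0.21 leaving out 1 clone. Apart from changes that follow from fewer clones, the cause was not tested. Grhl2 and Ovol2 rest on few counts in most libraries, and in the library of yfp_7062c3 Grhl2 had 0. Rab25 had 6 to 27 counts in the heart-free libraries of low clones. Such counts limit what the low values of these genes show.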

Other observations

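The 3 clones without a class were not part of any class comparison, and their values are given here. In yfp_7062c3, a heart-free library, Cdh1 was at 393 CPM and Esrp2 at 15.2 CPM, the lowest of the 17 heart-free clones for both genes, with Epcam at 31.1 CPM, Esrp1 at 0.321 CPM and Rab25 at 0.241 CPM. Its Grhl2 count was 0. In yfp_6883c1, a heart-bearing library, Cdh1 was at 272 CPM, Esrp2 at 31.6 CPM, Elf3 at 29.1 CPM, Epcam at 26.8 CPM and Rab25 at 1.76 CPM. In its sister clone yfp_6883c4, also heart-bearing, the same genes were at 555, 68.3, 78.4, 86.9 and 2.91 CPM, each above the first.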
